A study of Mus musculus with 9 samples.

Results

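Complement components, regulators and receptors other than C1q were followed in endothelial cells (ECs) sorted from mouse lungs. The set was given as a list of 9 genes, namely C3, C4b, Cfb, Cfp, Serping1, Cd55, Cd59a, Cd46 and C3ar1, and every probe set whose annotation names one of them alone was taken. Of 45101 probe sets on the array, 13 met this rule, and they measured 7 of the 9 genes. No probe set is listed with C3 in the annotation used here, and the probe set listed with C4b is shared with C4a, so neither has a value of its own. Cd55 and C3ar1 have 3 probe sets each, Cfp and Cd59a have 2 each, and Cfb, Serping1 and Cd46 have 1 each.

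Complement is a cascade of plasma proteins that tags surfaces for removal, recruits leukocytes and can open membranes. Its classical, lectin and alternative routes meet at C3, whose cleavage releases the anaphylatoxin C3a and leaves C3b bound to the surface. Factor B, the product of Cfb, supplies the catalytic part of the alternative C3 convertase, and properdin, the product of Cfp, stabilises that enzyme. C1 inhibitor, the product of Serping1, blocks the proteases that start the classical and lectin routes. Cells shield themselves with membrane regulators: CD55 speeds the decay of convertases, CD46 is a cofactor for the cleavage of C3b, and CD59 stops the assembly of the membrane attack complex. ECs are in steady contact with plasma complement and are known to carry such regulators on their surface.

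The mice were female NSG, an immunodeficient strain that lacks mature lymphocytes and, through its NOD ancestry, functional C5, and all 3 groups share this background. One group of 3 consisted of healthy, age-matched mice given control IgG. The other mice, 6 to 8 weeks of age at injection, received MDA-MB-231-LM2 human breast cancer cells through the tail vein, and their lungs were taken at week 3 (day 21). Of these, 3 were given control IgG and 3 the anti-VEGFA antibody B20.4.1.1 (B20) at 10 mg/kg, 2 times per week, and metastatic mice were picked by the study for a comparable tumour load. ECs were sorted as CD31+ cells without CD45, CD11b, CD326, CD140a, CD140b or GFP, so they come from the whole lung and not from the vicinity of metastases alone.

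The labels call the arrays of a group biological replicates, and with 3 of them per group every estimate is coarse. Values are log2 intensities, a difference of 1 is a doubling of intensity, and levels of different probe sets are not compared with each other. Within a group the lowest correlation between arrays was 0.988. Pecam1 and Cdh5, which define ECs, lay between 12.9 and 13.5 in all arrays, and 22 pan-endothelial genes averaged 12.7 to 12.8. The sort left some signal of other cells: Ptprc (CD45) measured 8.24, 8.82 and 9.24 in the healthy arrays and 9.25 to 9.51 in the metastatic arrays, while a second Ptprc probe set differed by -0.08 between metastasis and health under IgG. As a sign of RNA quality, the beta-actin difference between its 3' and 5' probe sets was 0.609 to 0.620 in healthy arrays, 0.488 to 0.555 with metastasis and IgG, and 0.526 to 0.620 with metastasis and B20.

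Promoter sequence was on hand for 6 of the 9 genes (RefSeq, GRCm38.p6), none of them Cfb, Serping1 or C4b. A stretch is shown for Cd59a, the regulator called lower in metastatic lungs with B20 than in healthy lungs, and for the receptor C3ar1, whose probe sets were higher in part. Both end where the annotated gene begins, and both run 5′ to 3′ along the gene's strand. The Cd59a stretch (chr2:104095551-104095752, plus strand, 202 bases) holds the letters of an interferon-stimulated response element in capitals at 104095614 to 104095623, and the C3ar1 stretch (chr6:122856158-122856407, minus strand, 250 bases) holds none of the motifs searched.
Cd59a: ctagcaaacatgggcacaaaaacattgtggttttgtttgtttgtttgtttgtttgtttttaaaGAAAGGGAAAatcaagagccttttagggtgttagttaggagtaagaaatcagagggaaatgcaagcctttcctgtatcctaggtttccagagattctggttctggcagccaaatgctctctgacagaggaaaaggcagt
C3ar1: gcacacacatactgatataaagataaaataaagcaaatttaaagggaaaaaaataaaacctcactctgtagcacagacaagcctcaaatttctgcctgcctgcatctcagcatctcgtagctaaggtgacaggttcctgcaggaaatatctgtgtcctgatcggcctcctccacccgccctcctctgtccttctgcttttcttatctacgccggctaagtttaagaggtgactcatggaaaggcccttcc
Over windows of 300 bases and on both strands, the interferon-stimulated response element, read as GAAA, any 2 bases and GAAA again, was found in 3.44% of 32851 promoters, TTCNNNGAA for the STAT element in 8.3%, and the NF-kB consensus in 8.46%. Among the 6 genes with sequence, Cd59a and Cd46 held the interferon motif and none held either of the other motifs. In Cd46 the match lay on the opposite strand, 2 bases past the start used. Such a match describes letters in a window and does not show a binding site.

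The first question was how complement genes of lung ECs differed between metastatic and healthy lungs of mice given control IgG. Cfb rose, and it was the single gene of the 7 that passed the test at an adjusted p under 0.05 over 18193 genes (limma with Benjamini-Hochberg adjustment). Serping1 and Cd55 showed differences of similar size in opposite directions that did not pass, and Cfp and Cd46 lay near 0. Over all genes 5.55% were called higher and 3.46% lower in this comparison, and beside those shares 1 higher and 0 lower of 7 is no result about the set as a whole. The median difference of the 7 genes was -0.12, against -0.00 over all genes. For 4 of the 7 genes, Cfb, Serping1, Cd55 and Cd59a, healthy and metastatic arrays were apart, as they were for 29.1% of all genes.

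Cfb (probe set 1417314_at, gene at chr17:34856374-34862514) carried the largest difference of the 7 genes. Its log2 intensity was 9.13, 9.14 and 9.22 in the healthy arrays, 10.60, 10.77 and 10.37 with metastasis and IgG, and 10.52, 10.67 and 10.63 with metastasis and B20. All 6 metastatic arrays lay more than 1 log2 unit above all 3 healthy arrays, and the metastatic groups overlapped. The log2 difference between metastasis and health under IgG was 1.42 ± 0.11 (SE, 3 arrays against 3), a fold of 2.68, with a limma adjusted p of 0.000242. It ranked 126 among 18193 genes ordered from the highest difference down. Cfb belongs to GSP58, the signature the study drew from lung ECs of this metastasis model in a time course to week 3. The rise of Cfb here comes from the same model and week, so it does not extend that list to another setting. In bulk samples such as these, a change in the share of a cell type and a change in RNA per cell cannot be told apart. This holds for rises and for falls. The part of other cells in the Cfb result was not tested.

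**Figure D1:**
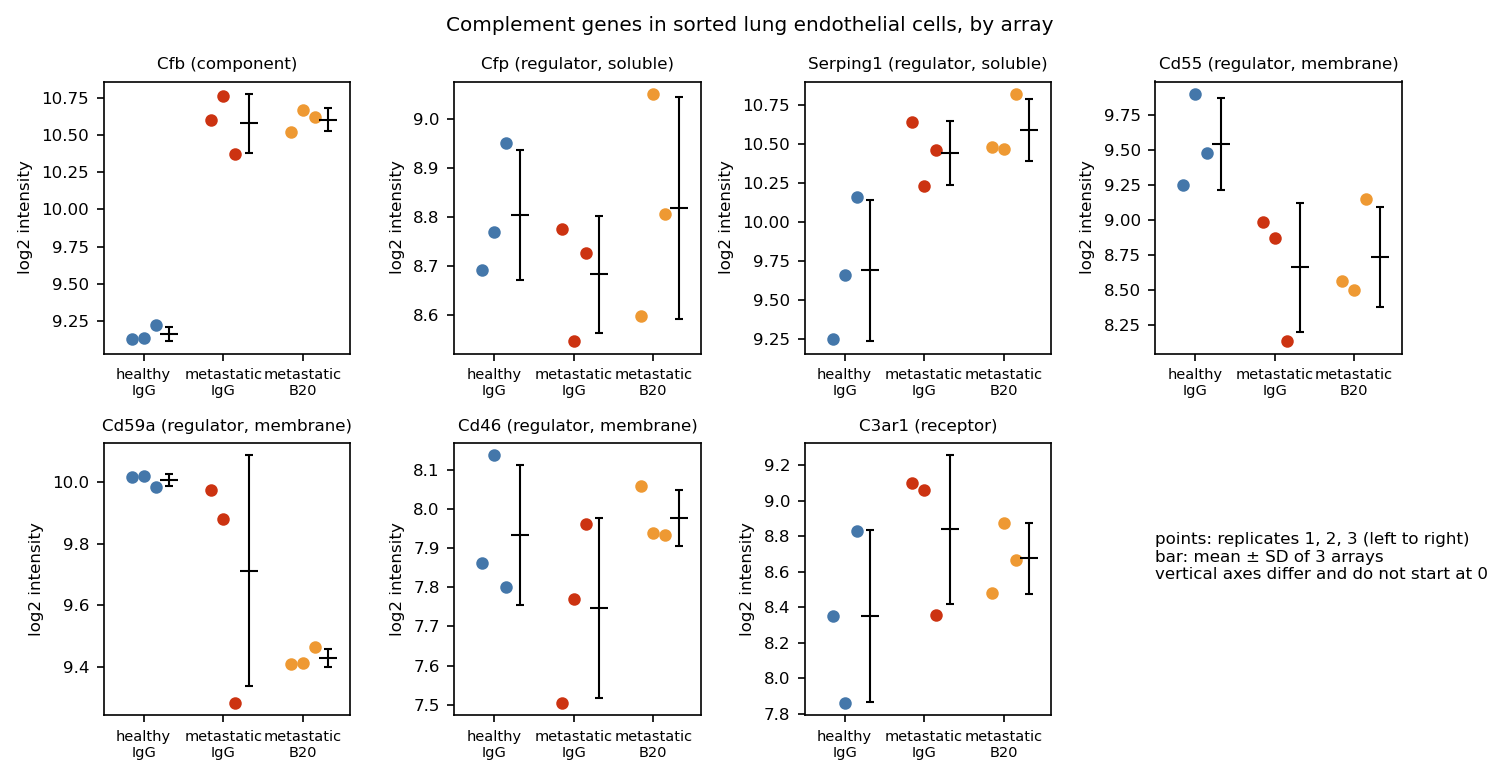
Log2 intensity of the 7 measured complement genes in each array, with replicates 1 to 3 from left to right in each group and the mean ± SD of 3 arrays beside them; the vertical axes differ and do not start at 0. For Cfb the 6 metastatic arrays (10.37 to 10.77) lie above the 3 healthy arrays (9.13 to 9.22), and for Cd59a the 3 B20 arrays (9.41 to 9.46) lie below them (9.98 to 10.02).

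Cfp, whose product is a known positive regulator of the alternative pathway, did not move with Cfb. The probe set used (1452279_at, gene at chrX:20925454-20931555) measured 8.69, 8.77 and 8.95 in healthy, 8.77, 8.55 and 8.73 in metastatic IgG and 8.60, 9.05 and 8.81 in metastatic B20 arrays. All 3 groups overlapped. The difference between metastasis and health under IgG was -0.12 ± 0.10 (adjusted p 0.533, limma), and the other probe set, 1447537_at, gave -0.02 ± 0.09.

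Serping1, the soluble inhibitor of the classical and lectin proteases (1416625_at, chr2:84765360-84775444), measured 9.25, 9.66 and 10.16 in healthy arrays. It measured 10.64, 10.23 and 10.46 with metastasis and IgG and 10.48, 10.47 and 10.82 with metastasis and B20. The 6 metastatic arrays lay above the 3 healthy ones, but the healthy arrays spread over 0.91 log2 units, with an SD of 0.45 against 0.20 to 0.21 in the other groups. Under IgG the difference was 0.75 ± 0.21, a fold of 1.69, with an adjusted p of 0.0675 (limma), just short of the threshold. Without healthy replicate 3, the highest healthy array, it was 0.99 with an adjusted p of 0.0150.

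Genes of fibroblasts were set beside Serping1 array by array. The mean log2 intensity of 14 fibroblast genes was 8.91, 9.41 and 9.72 in the healthy arrays, 9.70, 9.40 and 9.57 with IgG and 9.54, 9.49 and 9.72 with B20, so in each group the arrays fell in the same order as for Serping1. Over all arrays the fibroblast level ran from 8.91 to 9.72 in health and from 9.40 to 9.72 with metastasis. Serping1 ran from 9.25 to 10.16 in health and from 10.23 to 10.82 with metastasis. Of the 14 fibroblast genes 4 were called higher and 1 lower under IgG, against 5.55% and 3.46% of all genes. The 14 genes had a median difference of -0.08. Col1a1, their largest, rose by 1.48 ± 0.14 (adjusted p 0.000572, limma). Inmt was the gene called lower, by 1.06 ± 0.20 (adjusted p 0.0159), and 7 of the 14 differences were above 0. Epithelial genes (15) were also lowest in healthy replicate 1, at 8.81 against 9.26 to 9.69 elsewhere. From replicate 1 to 3 the healthy arrays rose for them too, as for 23 macrophage and monocyte genes (8.38, 8.50 and 8.69). The same order held for 12 pericyte and smooth muscle genes (8.31, 8.48 and 8.63). The part of these cells in the Serping1 result was not tested.

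**Figure D2:**
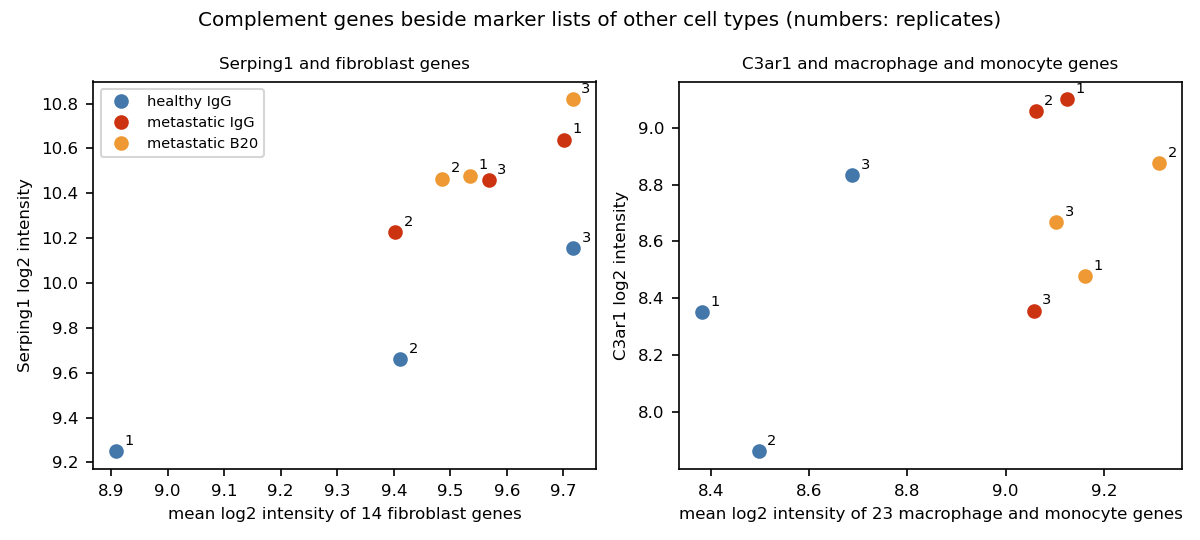
Serping1 log2 intensity against the mean log2 intensity of 14 fibroblast genes (left), and C3ar1 against that of 23 macrophage and monocyte genes (right), one point per array and numbers for replicates. Fibroblast levels run from 8.91 to 9.72 in healthy and 9.40 to 9.72 in metastatic arrays. Serping1 runs from 9.25 to 10.16 in healthy and 10.23 to 10.82 in metastatic arrays.

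Of the membrane regulators, which protect the cell that carries them, none was called between metastasis and health under IgG. Cd55 (1460242_at, chr1:130429798-130465009) measured 9.25, 9.90 and 9.48 in healthy arrays, 8.98, 8.87 and 8.13 with metastasis and IgG, and 8.56, 8.50 and 9.15 with metastasis and B20. All 6 metastatic arrays lay below the 3 healthy arrays, with metastatic IgG replicate 3 the lowest of all. The difference under IgG was -0.88 ± 0.24, with an adjusted p of 0.0593 (limma), and without that array it was -0.62 with an adjusted p of 0.0896.

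Within the healthy and the metastatic IgG group the other Cd55 probe sets varied less between arrays. Tested among 34945 single probe sets, 1418762_at was 9.05, 9.48 and 9.21 in healthy and 8.49, 8.51 and 8.23 in metastatic IgG arrays, a fall of 0.84 ± 0.13 with an adjusted p of 0.00710. Probe set 1443906_at was 8.07, 8.52 and 8.24 in healthy and 7.63, 7.70 and 7.68 in metastatic IgG arrays, a fall of 0.61 ± 0.12 with an adjusted p of 0.0193. All 3 probe sets of Cd55 thus pointed the same way under IgG, without overlap of healthy and metastatic IgG arrays. A further probe set that the annotation shares between Cd55 and Cd55b, a close copy, gave -0.06 ± 0.10. It was dim, with means of 6.93 in healthy and 6.88 in metastatic IgG arrays, where the median of an array's probe sets was 8.31. The mean of the 3 Cd55 probe sets was -0.78 with an adjusted p of 0.0143 over all genes.

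Cd59a, the inhibitor of the membrane attack complex (1418710_at, chr2:104095753-104115410), was nearly constant in the healthy arrays at 10.02, 10.02 and 9.98. It measured 9.97, 9.88 and 9.28 with metastasis and IgG, and 9.41, 9.41 and 9.46 with metastasis and B20. With IgG, replicates 1 and 2 lay just under the healthy arrays and replicate 3 lay 0.60 below replicate 2. The difference was -0.29 ± 0.17 with an adjusted p of 0.341 (limma) and shrank to -0.08 (adjusted p 0.637) without IgG replicate 3. The probe set 1429830_a_at gave -0.34 ± 0.14. The promoter stretch with the interferon motif shown above belongs to this gene.

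Cd46 (1421586_a_at, chr1:195038971-195098784) measured 7.86, 8.14 and 7.80 in healthy, 7.51, 7.77 and 7.96 in metastatic IgG and 8.06, 7.94 and 7.93 in metastatic B20 arrays. The groups overlapped, and the difference under IgG was -0.19 ± 0.14 (adjusted p 0.469, limma). Expression of Cd46 in the mouse is known to be largely confined to the testis, and with Cfp and C3ar1 it lay below the median of all gene means. A filter at that median kept 4 of the 7 genes, Cfb, Serping1, Cd55 and Cd59a.

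C3ar1 encodes the receptor of C3a, a G protein-coupled receptor known from myeloid cells. Its probe set used (1419483_at, chr6:122847140-122856157) measured 8.35, 7.86 and 8.83 in healthy, 9.10, 9.06 and 8.36 in metastatic IgG and 8.48, 8.88 and 8.67 in metastatic B20 arrays, and all groups overlapped. The difference under IgG was 0.49 ± 0.27 with an adjusted p of 0.323 (limma), and it was 0.25 without healthy replicate 2 and 0.73 without healthy replicate 3. The other probe sets gave tighter groups. In 1442082_at the arrays were 6.33, 6.25 and 6.80 in health and 7.60, 7.46 and 7.03 with metastasis and IgG, a difference of 0.90 ± 0.18 with an adjusted p of 0.0228 over single probe sets. In 1419482_at the difference was 0.70 ± 0.20 with an adjusted p of 0.0788.

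C3ar1 is in the study's list of EC inflammation genes, which was chosen for this model. In the same arrays 11 of 23 genes of macrophages and monocytes were called higher under IgG and none lower, against 5.55% and 3.46% of all genes. The 23 genes had a median difference of 0.53. Their mean level was 8.38 to 8.69 in healthy, 9.06 to 9.12 in metastatic IgG and 9.10 to 9.31 in metastatic B20 arrays. Adgre1, which marks macrophages, measured 7.04 to 7.93 in healthy and 8.03 to 8.76 in metastatic arrays. It was not called against health, with IgG (0.74 ± 0.26, limma adjusted p 0.128) or with B20 (adjusted p 0.0957). Within the IgG group C3ar1 (1419483_at) measured 9.10, 9.06 and 8.36, beside macrophage levels of 9.12, 9.06 and 9.06. The part of macrophage RNA in the C3ar1 values was not tested.

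Among single probe sets, 4 of the 13 were called between metastasis and health under IgG, against 7.41% of all 34945. They were those of Cfb, 2 of Cd55 and 1 of C3ar1. With metastasis and B20 against health 6 of 13 were called, against 5.41%, namely Cfb, Serping1, 1 of Cd55, 1 of Cd59a and 2 of C3ar1. Probe sets of 1 gene share a transcript and are not independent of each other.

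**Figure D3:**
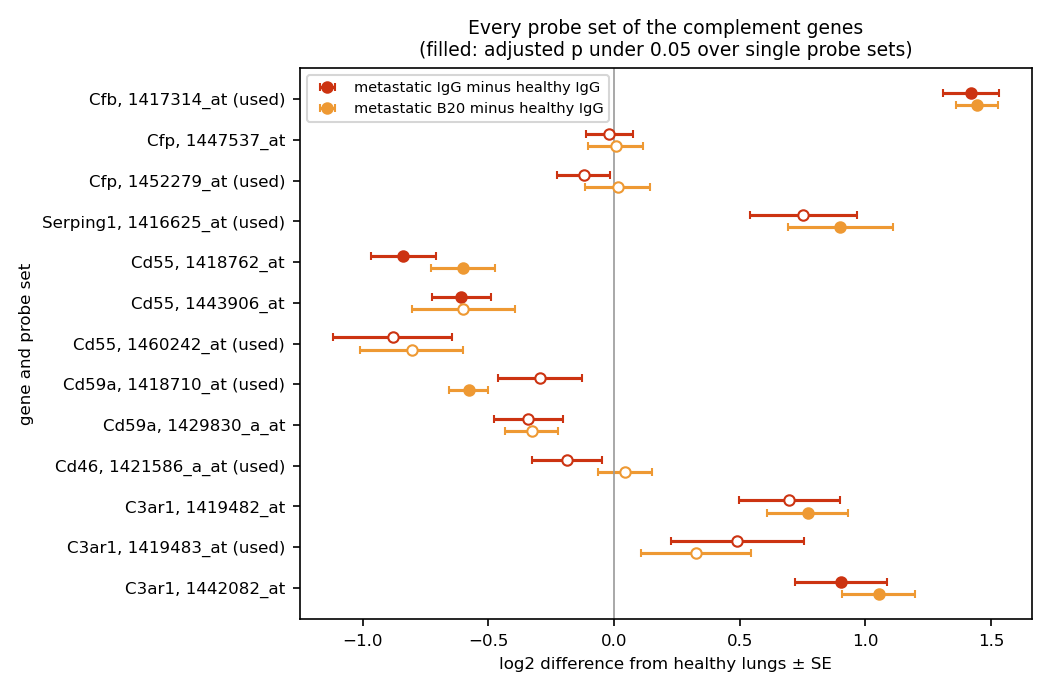
Log2 difference from healthy lungs ± SE for each of the 13 probe sets, with IgG (red) and with B20 (orange), filled where the adjusted p over single probe sets is under 0.05 and "used" where the probe set stands for its gene. The 3 probe sets of Cd55 lie at -0.61 to -0.88 with IgG, and those of C3ar1 at 0.49 to 0.90.

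The second question was whether blocking VEGF changed complement expression in ECs of metastatic lungs. None of the 7 genes was called between B20 and IgG, and none had an unadjusted p under 0.05. Over all genes 0% were called (0 of 18193 with limma, 1462 at an unadjusted p under 0.05). The arrays of the groups were apart for 0 of the 7 genes, where 13.1% of all genes were apart. The smallest adjusted p among the 7 genes was 0.697.

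The intervals tell how large a change these arrays could have missed. For Cfb the B20 minus IgG difference was 0.02 with a 95% interval of -0.23 to 0.28, so folds from 0.85 to 1.22 were covered. For Serping1 it was 0.15 (-0.16 to 0.46), and for Cfp 0.14 (-0.15 to 0.43). Among the membrane regulators, Cd46 differed by 0.23 (-0.05 to 0.51), Cd55 by 0.08 (-0.48 to 0.63) and Cd59a by -0.28 (-0.66 to 0.10). For C3ar1 it was -0.16 (-0.61 to 0.29). The interval of Cd55 was the widest of the 7, spanning folds of 0.72 to 1.55, and that of Cfb the narrowest.

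Cd59a turned on 1 array here too. Without metastatic IgG replicate 3 its difference between B20 and IgG was -0.50 with an adjusted p of 0.296, in place of -0.28 with 0.734. The 3 B20 arrays lay within 0.05 of each other. Its other probe set gave 0.01 ± 0.15.

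**Figure D4:**
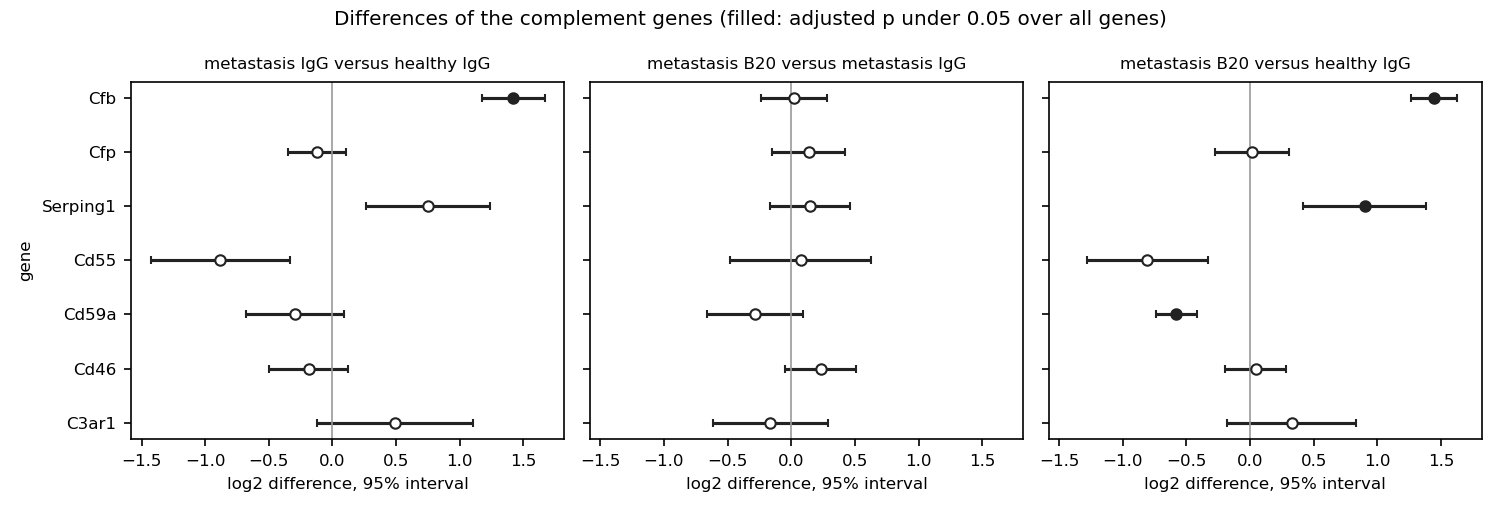
Log2 difference with its 95% interval for the 7 complement genes in the 3 comparisons, filled where the adjusted p over all genes is under 0.05. Cfb is filled in both comparisons with healthy lungs, Serping1 and Cd59a with B20 alone, and none between B20 and IgG.

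The third comparison set metastatic lungs under B20 against the same healthy arrays, so it shares its controls with the first and does not count as an independent repeat. Of the 7 genes 2 were called higher and 1 lower, against 4.15% higher and 2.29% lower over all genes. Arrays were apart for 4 of 7, against 26.9%. Cfb rose by 1.44 ± 0.08 (fold 2.72, adjusted p 4.01e-05, limma), next to 1.42 under IgG.

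Serping1 was higher by 0.90 ± 0.21 (fold 1.87, adjusted p 0.0429, limma), next to 0.75 under IgG. This call was narrow: it was lost without healthy replicate 1 (0.68, adjusted p 0.0787) or 2 (adjusted p 0.128) and without B20 replicate 1, 2 or 3 (adjusted p 0.0720, 0.103 and 0.129). Fibroblast genes again stood at 8.91 to 9.72 in healthy and 9.49 to 9.72 in B20 arrays.

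Cd59a fell by 0.58 ± 0.07 (fold 0.67, adjusted p 0.00297, limma), next to -0.29 under IgG, and kept its call whichever array was left out. Its second probe set gave -0.33 ± 0.11 with an adjusted p of 0.120 over single probe sets. That Cd59a was called with B20 and not with IgG does not show that the groups differ, since the direct comparison was not called. Cd55 was lower by 0.81 ± 0.21 with an adjusted p of 0.0606, next to -0.88 under IgG, and without B20 replicate 3 by 1.01 with 0.0300. Over single probe sets, its probe set 1418762_at was lower by 0.60 ± 0.13 (adjusted p 0.0330). Probe set 1443906_at was lower by 0.60 ± 0.20 (adjusted p 0.141), and its healthy and B20 arrays overlapped.

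C3ar1, Cd46 and Cfp were not called in the probe sets used. C3ar1 differed by 0.33 ± 0.22 (adjusted p 0.461), by 0.0832 without healthy replicate 2 and by 0.57 without healthy replicate 3. By contrast, 1442082_at was higher by 1.05 ± 0.15 (adjusted p 0.00519) and 1419482_at by 0.77 ± 0.16 (adjusted p 0.0296) over single probe sets. The mean of its 3 probe sets was higher by 0.72 with an adjusted p of 0.0210 over all genes. Cd46 differed by 0.04 ± 0.10 and Cfp by 0.01 ± 0.13.

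The other genes of the complement pathway were taken from a list of 47, of which 38 were measured. Under IgG 9 of them were called higher and 1 lower in metastatic lungs, against 5.55% higher and 3.46% lower over all genes. The other 28 were not called, and 31 of the 38 differences were above 0. Their median difference was 0.10, against -0.00 for all genes. Their mean level per array was 8.28 to 8.34 in health, 8.55 to 8.66 with IgG and 8.53 to 8.64 with B20. Of the C1q chains, which recognise antibody complexes and dying cells, C1qa and C1qb led the list. In the probe sets used, C1qa rose by 2.64 ± 0.14, C1qb by 1.74 ± 0.19 and C1qc by 0.95 ± 0.10. The 2 other probe sets of C1qb rose by 1.80 and 2.73, both called over single probe sets. C1q is a known product of macrophages, whose marker values are given above.

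Beyond C1q, Hc, the gene of C5, rose by 1.05 ± 0.19 (adjusted p 0.0121, limma). As said of the strain, NSG mice are known to make no functional C5. Cfi, the protease that cleaves C3b with the help of cofactors such as CD46, rose by 0.78 ± 0.20 (adjusted p 0.0483). Masp1, a protease of the lectin route, rose by 0.84 ± 0.15 (adjusted p 0.0104) in the probe set used, while its 4 other probe sets ranged from -0.00 to 0.46. Masp2, its partner, was the gene that fell, by 0.46 ± 0.11 (adjusted p 0.0376) in the probe set used, while its other probe set gave -0.28 and was not called. The others called higher were Itgb2, C6 and Clu, of which C6 belongs to the membrane attack complex and Clu, clusterin, is known to bind it. Of the called genes, C1qb, C1qc, Hc, Cfi, Itgb2 and C6 lay below the median of all gene means.

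**Figure D5:**
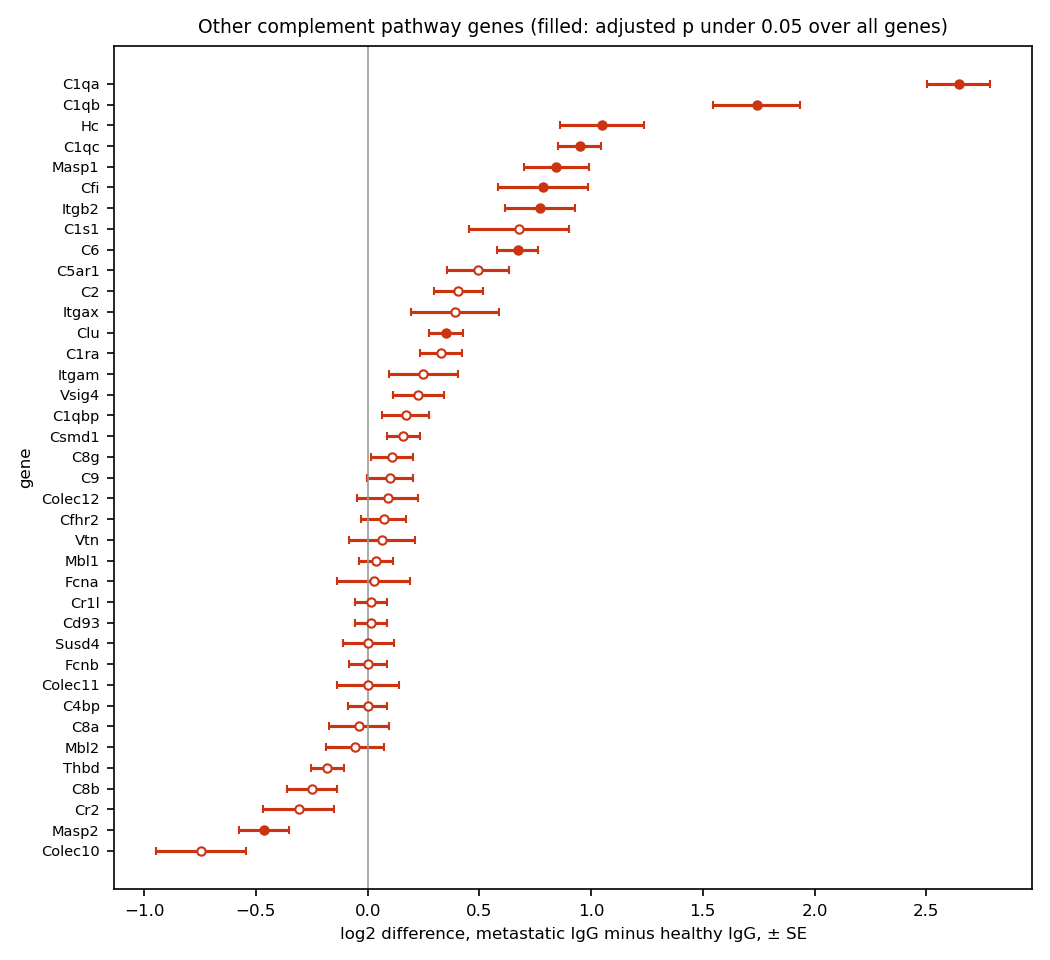
Log2 difference between metastatic and healthy lungs under IgG ± SE for 38 complement pathway genes outside the set of 9, ordered by size and filled where the adjusted p over all genes is under 0.05. Each gene is shown by the probe set used. C1qa (2.64) and C1qb (1.74) stand highest, and of the 10 filled genes Masp2 alone is below 0.

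The 38 genes had a median difference of 0.12 under B20 against health. Of them 7 were called higher and none lower, against 4.15% and 2.29% of all genes. They were the C1q chains, Hc (0.87 ± 0.16), Cfi (0.80 ± 0.13), C1ra (0.42 ± 0.09) and Clu (0.32 ± 0.08). C1ra encodes a protease of the C1 complex, the target of C1 inhibitor. Between B20 and IgG none of the 38 was called and the median was -0.01. Masp1 had the largest difference there, -0.52 ± 0.27 with an adjusted p of 0.700 (limma).

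For each gene of the set the genes with the most similar values over the 9 arrays were looked up by Pearson's r, as a description. All arrays share the 3 groups, so genes that differ between healthy and metastatic lungs resemble each other for that reason alone. Cfb was closest to Slc4a1 (r = 0.999) and Irf7 (r = 0.997), the latter an interferon-induced transcription factor. Other probe sets of Slc4a1 differed by 0.01 to 0.24 between metastasis and health under IgG, against 1.77 for the one used. Serping1 was closest to Pdgfrb (r = 0.973) and Col3a1 (r = 0.968), both in the fibroblast list above. A second Pdgfrb probe set differed by 0.32 between metastasis and health under IgG, against 1.18 for the one used. Cd55 was closest to Icosl (r = 0.971) and Duoxa2 (r = 0.957), and Cd59a to Hr (r = 0.919) and 2210406O10Rik (r = 0.914). C3ar1 was closest to Xpo6 and Tmem141 (both r = 0.973), Cd46 to Baz2b (r = 0.967) and Rest (r = 0.955), and Cfp to Sh3tc1 (r = 0.939) and Dctn3 (r = 0.917).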

How the data were processed

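RNA of sorted lung ECs was measured on 9 Affymetrix Mouse Genome 430 2.0 arrays. The authors applied RMA in Chipster before deposit, and the deposited log2 intensities were not changed. RMA gives all arrays one distribution, so a shift common to all genes cannot be seen. Of 45101 probe sets, 34945 that name 1 gene and are no controls entered (9211 are unnamed here and 932 name several). Each of the 18193 genes took its brightest probe set on average, with symbols updated by Entrez ID. A comparison used its own 6 arrays in limma (version 3.58.1, R 4.3.3; lmFit and eBayes), after a test on simulated data, and called genes at a Benjamini-Hochberg adjusted p under 0.05. SEs and 95% intervals come from the fit over genes, or over single probe sets where these are named.

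The genes and lists were chosen with earlier results of these data known. Named were the 9 genes with all their probe sets, the 2 genes most alike to each, up to 6 called pathway genes per comparison (or those of smallest p), and defining markers. C6, Itgb2, Clu, C1ra and Inmt are named beyond that where a count was to be complete. Alternatives were a joint fit of 9 arrays, a replicate block, a filter on dim genes, means of a gene's probe sets, single probe sets, probe sets without suffix, centring, further quantile normalization, array weights, trend with robust settings, the study's thresholds (log2 difference over 0.75, p under 0.05, adjusted p under 0.25) and leaving out each array. Figures used matplotlib 3.10.9 and pandas 2.3.3 (Python 3.11.15).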

Additional observations from a re-analysis of the deposited data

Results flagged for a closer look

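The probe set that the annotation shares between C4a and C4b, and that therefore belongs to neither alone, was outside the comparisons above. C4 is cleaved by the classical and lectin proteases and forms part of their C3 convertase. Its log2 intensity was 8.77, 9.06 and 9.35 in healthy arrays, 9.89, 9.88 and 9.77 with metastasis and IgG, and 9.95, 9.90 and 9.74 with metastasis and B20, so that all 6 metastatic arrays lay above the healthy ones. It was singled out as a signal outside the main measurement that exceeded the healthy controls. The difference was 0.79 ± 0.14 with IgG (limma adjusted p 0.0162 over all probe sets) and 0.80 ± 0.15 with B20 (adjusted p 0.0191), and 0.01 ± 0.10 between B20 and IgG. The healthy arrays fell in the same order as their fibroblast and macrophage levels, and the part of those cells was not tested.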

How the results depend on the processing

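Cfb was called higher than in healthy lungs under all 16 alternatives that kept the threshold on adjusted p, with 1.33 to 1.52 for IgG and 1.41 to 1.49 for B20, and Cd59a was called lower with B20 under the same 16 (-0.60 to -0.45). Under the study's thresholds Cfb kept both calls, but Cd59a lost its own, and Cfb, Serping1 and Cd55 were the 3 genes called with B20. Of the 7 genes, 1 was called between metastasis and health under IgG. That count was 3 of the 4 genes kept with a filter on dim genes. It was 3 with trend and robust settings and 3 with the study's thresholds. In a fit of all 9 arrays it was 2, with means of probe sets 2, and with arrays left out 1 to 2. Serping1 and Cd55 account for these calls. Calls over all genes rose as well, from 1640 to 2219 with trend and robust settings, 1739 with all 9 arrays and 1722 with means of probe sets. The filter gave 1664 among the genes it kept, a smaller set, so these counts are no result about the 7 genes as a set. Serping1 reached adjusted p of 0.0366, 0.0457 and 0.0426 with the filter, trend and robust settings and all 9 arrays, and Cd55 0.0316, 0.0374 and 0.0143 with the filter, trend and robust settings and means of probe sets. Against B20 arrays, Cd55 reached 0.0312 and 0.0297 with the filter and with trend and robust settings, and Serping1 lost its call with array weights (0.0641). Over all genes, 1640 were called with IgG against health (2591 single probe sets, 507 with the study's thresholds, 869 to 1478 with arrays left out), and 1172 with B20 (1891, 430 and 645 to 1139, and 1848 with trend and robust settings). Small differences turned direction without a call: C3ar1 between B20 and IgG was 0.0198 with means of probe sets, and Cfp between B20 and health was -0.0078 with array weights and -0.0042 with centring. With arrays left out, Cfp ranged from -0.10 to 0.13 and Cd46 from -0.0220 to 0.15 against health, and between B20 and IgG Cd55 ranged from -0.19 to 0.24 and Cfb from -0.0799 to 0.12. The cause was not tested.

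Samples of the same replicate number did not deviate together (9 pairs, r from -0.08 to 0.01). Those of unlike number ranged from -0.145 to 0.177 (18 pairs). These values give no sign of a pairing by number, but with 3 arrays per group they cannot exclude one. With the replicate number as a block, 1, 0 and 3 of the 7 genes were called in the 3 comparisons, and 1176, 0 and 841 of all genes; Cfb differed by 1.42 with IgG (adjusted p 0.00317) and Serping1 by 0.90 with B20 (adjusted p 0.0164). Alternatives that leave out suffixed probe sets gave no value for Cd46.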
